A study of Mus musculus with 9 samples.

Results

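Microglia, macrophage and complement genes were followed in whole retinas of C57BL/6N mice with oxygen-induced retinopathy. High oxygen here stops the growth of retinal vessels, and the return to room air leaves poorly perfused tissue short of oxygen. The list held 32 genes chosen by symbol, of 19405 genes with a named probe on the Illumina bead arrays. For each gene the most intense probe among those that passed the detection filter was used, or, where none passed, the probe detected on the most arrays. A probe was found under the symbol for 27 of the 32 genes, and 17 of the 27 passed the detection filter and were tested.

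The control group consisted of normal mice at postnatal day 12 (P12). The hyperoxic group had been kept with their mothers in 75% oxygen for 5 days from postnatal day 7 and was sampled at P12. The hypoxic group had the same oxygen exposure and then 12 hours in room air, and was sampled at P12.5. Each group had 3 arrays, numbered 1 to 3, with 1 mouse to an array and the RNA of its left and right retinas combined. All mice were of one strain and no group carried a genetic change. No room-air mice of P12.5 were measured, so 12 hours of age and the time of day cannot be told apart from the hypoxic treatment. A whole retina holds few microglia among many neurons, and in such bulk samples fewer cells of a type and less RNA per cell cannot be told apart.

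Microglia are the resident macrophages of the retina. They scan the tissue through the fractalkine receptor Cx3cr1 and take up debris and synapses through receptors that signal by the adaptors Tyrobp and Fcer1g. They make C1q, a protein of 3 chains encoded by C1qa, C1qb and C1qc, which opens the classical complement pathway. The pathway proceeds through C4 and C3 and is held in check by inhibitors such as Serping1 in fluid and Cd59a on membranes. After injury microglia can lose surveillance markers and gain phagocytic and lysosomal genes, among them Trem2 and the galectin Lgals3. Lgals3 is also made by other macrophages and by some epithelial and glial cells.

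The start-site windows of 3 members are shown, and no expression result draws on them. The members are Lgals3, which passed the test, and C1qb and C1qc, which lie on the same strand. C1qb and C1qc were both highest on hyperoxic 1 and lowest on control 1. Each window covers 250 bases before to 50 bases after the RefSeq gene start (build GRCm38.p6) and is written 5′ to 3′ on the gene's strand, in lower case. Capitals mark the letters GAGGAAGT, on either strand, a form of the PU.1 motif, PU.1 being a transcription factor of the macrophage lineage.
Lgals3, chr14:47373610-47373909, plus strand: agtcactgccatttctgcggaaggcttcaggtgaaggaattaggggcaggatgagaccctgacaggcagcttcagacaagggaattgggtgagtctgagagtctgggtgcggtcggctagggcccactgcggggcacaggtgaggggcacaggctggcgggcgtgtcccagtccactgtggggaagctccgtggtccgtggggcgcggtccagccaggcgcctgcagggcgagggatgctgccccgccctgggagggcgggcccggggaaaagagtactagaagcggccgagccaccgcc
C1qb, chr4:136886151-136886450, minus strand: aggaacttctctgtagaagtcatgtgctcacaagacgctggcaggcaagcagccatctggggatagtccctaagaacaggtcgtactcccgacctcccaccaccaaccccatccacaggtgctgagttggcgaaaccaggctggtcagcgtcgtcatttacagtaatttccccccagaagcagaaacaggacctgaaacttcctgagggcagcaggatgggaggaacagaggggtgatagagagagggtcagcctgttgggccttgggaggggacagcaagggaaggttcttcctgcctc
C1qc, chr4:136892865-136893164, minus strand: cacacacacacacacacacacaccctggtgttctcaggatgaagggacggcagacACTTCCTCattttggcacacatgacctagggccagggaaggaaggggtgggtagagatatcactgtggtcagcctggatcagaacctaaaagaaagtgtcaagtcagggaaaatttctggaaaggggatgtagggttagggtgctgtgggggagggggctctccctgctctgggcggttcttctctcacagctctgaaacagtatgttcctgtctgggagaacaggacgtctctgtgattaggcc
A RefSeq window was at hand for 14 of the 17 tested genes (15 windows, as 1 gene had a pair of them). The PU.1 letters were found in the windows of C1qc and Ctss, against 3.2% of all 32851 windows. The AP-1 letters TGANTCA, on either strand, were found in the window of Trem2 (7.81% of all windows). The hypoxia response core ACGTG, on either strand, was found in that of Ctsd (19.6% of all windows), and the STAT letters TTCCNGGAA in none (1.15% of all windows). These strings were kept from a wider set after matches in the same windows had been seen, so the matches are a description only.

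The tissue label was checked first. The photoreceptor genes Sag, Nrl, Crx and Rcvrn, the Muller glia gene Rlbp1 and the bipolar cell gene Prkca were detected on all 9 arrays, and the pigment epithelium gene Rpe65 on 1. Glul, another Muller glia gene, was detected on 8 arrays. Its log2 level ranged from 5.09 on hyperoxic 1, where it was not detected, to 8.17 on hyperoxic 2. Array hyperoxic 1 stood apart: its median raw intensity was 163.6 against 67.4 to 82.3 on the others. On it 30.6% of probes were detected, against 42.1% to 44.5%. The labels of the P12 arrays are in doubt, because the deposited ratios had a median of 1 at 100% of probes when taken over hyperoxic 2, hyperoxic 3 and control 1, and at 12.6% when taken over the 3 arrays labelled control. The detection p-values that stand beside the signals of control 1 to 3 follow those same arrays, control 1, hyperoxic 2 and hyperoxic 3, and the ones beside hyperoxic 1 to 3 follow control 2, control 3 and hyperoxic 1. The labels of control 2 and 3 may thus have been exchanged with those of 2 hyperoxic arrays, in which case the labelled hyperoxic and control groups each hold mice of both conditions. Control 1, hyperoxic 2 and hyperoxic 3 are called the reference P12 arrays below, and control 2, control 3 and hyperoxic 1 the non-reference P12 arrays. Conditions are given as labelled. The split by reference and the values without hyperoxic 1 are given beside the results they change most. Judged by Xist and Eif2s3y, 3 arrays had the pattern of female mice: hypoxic 2, control 1 and control 3.

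Detection varied widely over the list, and several tested genes lay near the limit of detection. Tyrobp was not detected on control 2 and hyperoxic 1, so only the hypoxic group brought it past the detection filter. Among the 7 microglial identity genes, Aif1 and Cx3cr1 were tested. The purinergic receptor gene P2ry12 and the integrin gene Itgam were detected on no array, and Tmem119, a marker of resident microglia, on control 1 alone. Csf1r, the receptor for the survival factor of macrophages, had no probe under the symbol, and neither had Cd68, Spp1, C3 or Sparc1. Sparc1 is not a current mouse symbol in the tables used here and no other gene was put in its place. The leukocyte genes Ptprc, Cd53 and Cd14 and the macrophage receptors Mrc1 and Cd163 were also detected on no array. Of the complement genes that were not tested, C4b was detected on control 1 and control 2, and Cfi, a protease that inactivates C3b and C4b, on hypoxic 2 alone. A probe that is not detected may be dim or may bind poorly, so these genes have no value here.

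**Figure D1:**
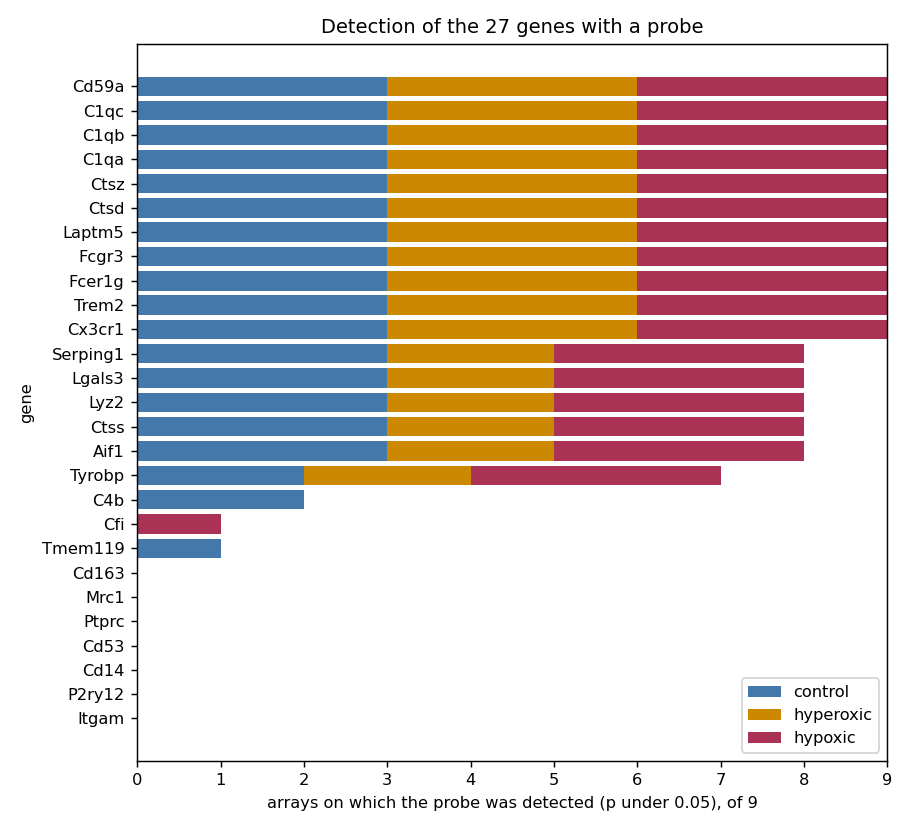
Number of the 9 arrays (horizontal axis) on which the probe of each of the 27 genes with a probe was detected, coloured by labelled group (3 arrays each). Detection means a detection p under 0.05. Of the 27 genes, 11 were detected on all 9 arrays and 7 on none.

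On hyperoxic 1 only 11 of the 17 tested genes were detected, and on each other array 16 or 17. Its lowest detected log2 level was 5.85, against 5.00 to 5.10 on the other arrays, so that its values for dim genes are bounds. It nevertheless held the highest level of 7 of the 17 genes, and hypoxic 1 of 6. Levels are log2 normalized intensities with an offset of 16, which makes differences of dim genes smaller than they are, and no gene's level is set against another's.

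**Figure D2:**
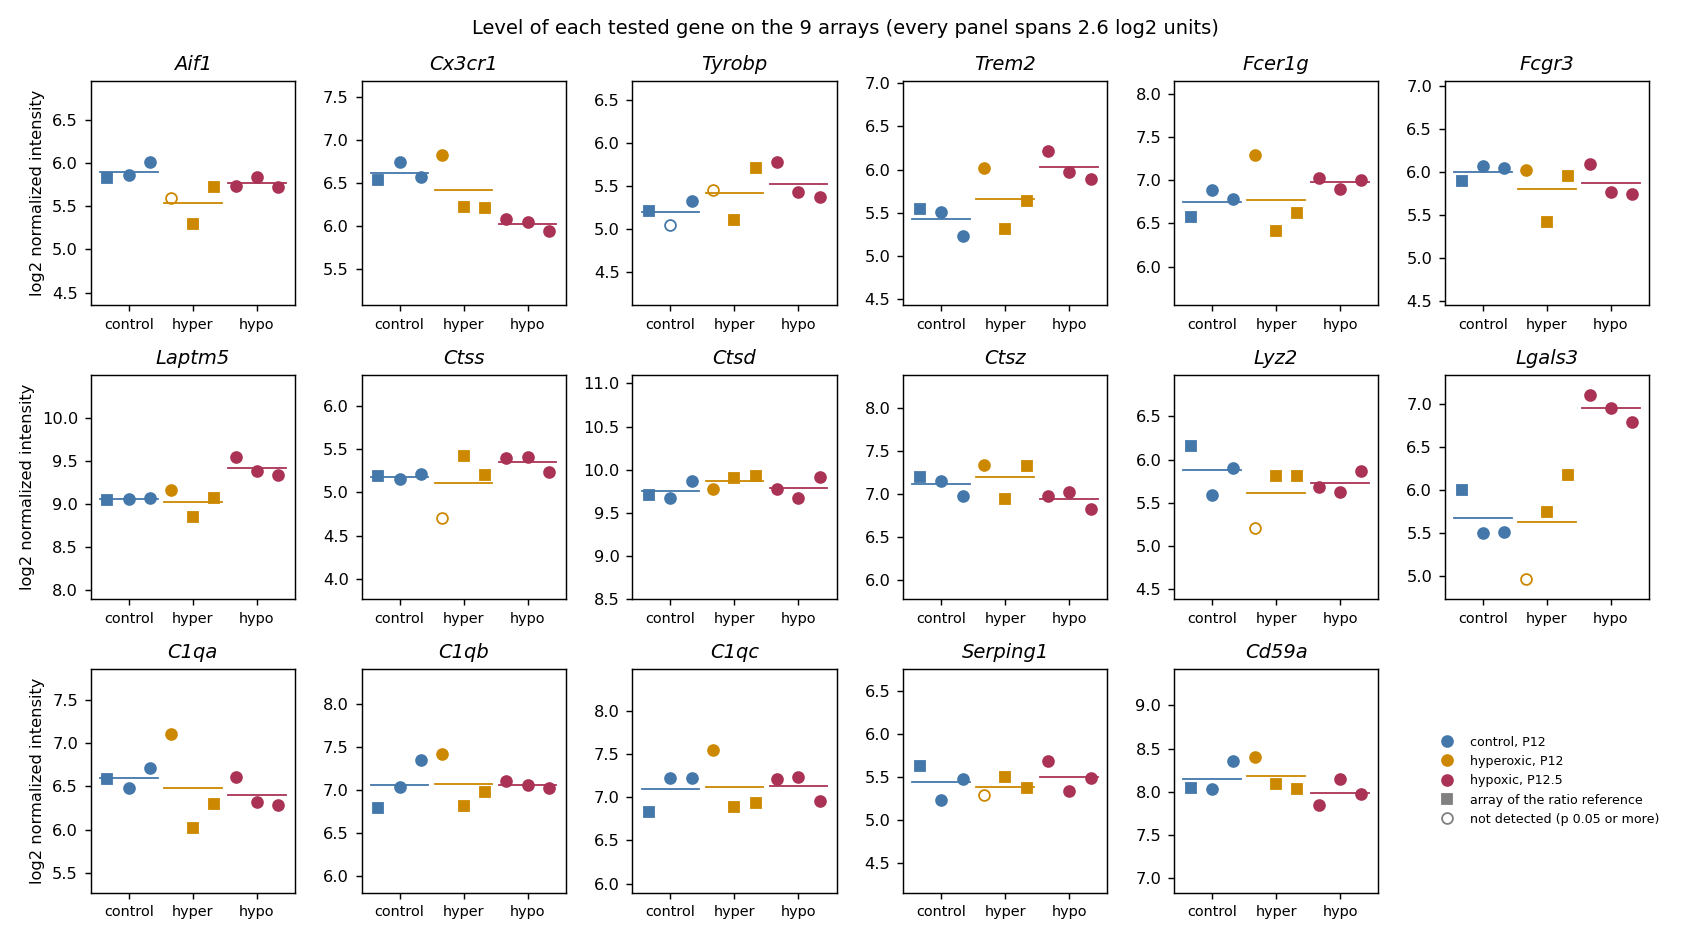
Log2 normalized intensity (vertical axis, every panel of the same span) of the 17 tested genes on the 9 arrays by labelled group, with the mean of each group as a line. Squares are the 3 reference P12 arrays and open symbols arrays on which the probe was not detected. The 3 hypoxic arrays lie above all P12 arrays for Lgals3 and Laptm5 and below them for Cx3cr1.

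The main comparison set the 3 hypoxic arrays at P12.5 against all 6 P12 arrays. With all arrays in use its differences do not depend on the doubtful P12 labels. Its errors and calls do, since the spread is taken around the mean of each labelled group. Once a P12 array is left out the differences depend on the labels too, because the control and hyperoxic means still count equally. With the P12 arrays grouped by the deposited ratios 1789 probes passed in place of 752, and Lgals3, Laptm5 and Cx3cr1 among the 17 genes. When hyperoxic 1 was left out, 3131 probes passed, and Cx3cr1, Trem2, Fcer1g, Laptm5 and Lgals3 among the 17 genes. Calls of single genes in these settings are to be read against those counts. With all arrays as labelled, 1 of the 17 genes passed, the galectin gene Lgals3, which rose 2.45-fold. This is 5.88% of the tested members, and 3.83% of all 19620 tested probes passed in that comparison (2.26% higher and 1.57% lower), so the count says nothing particular about the list. The median difference was 0.03 over the 17 genes and 0.02 over all tested probes (log2). Of the 17 genes, 9 had a positive and 8 a negative difference. The split of directions depended on the scaling of the arrays. With median centring in place of quantile normalization 252 probes passed as higher and 5 as lower, and the median of all probes moved from 0.02 to 0.24. In the deposited ratios 26 passed as higher and 0 as lower, and the median was 0.13. Under these scalings 16 of the 17 genes were positive, yet 9 and 8 of them lay above the median of all probes, against 9 as reported. The arrays of the groups did not overlap for 2 genes that were higher at P12.5 (Lgals3 and Laptm5), where 6.91% of all tested probes did so. They did not overlap for 1 gene that was lower (Cx3cr1), where 7.06% of probes did so.

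**Figure D3:**
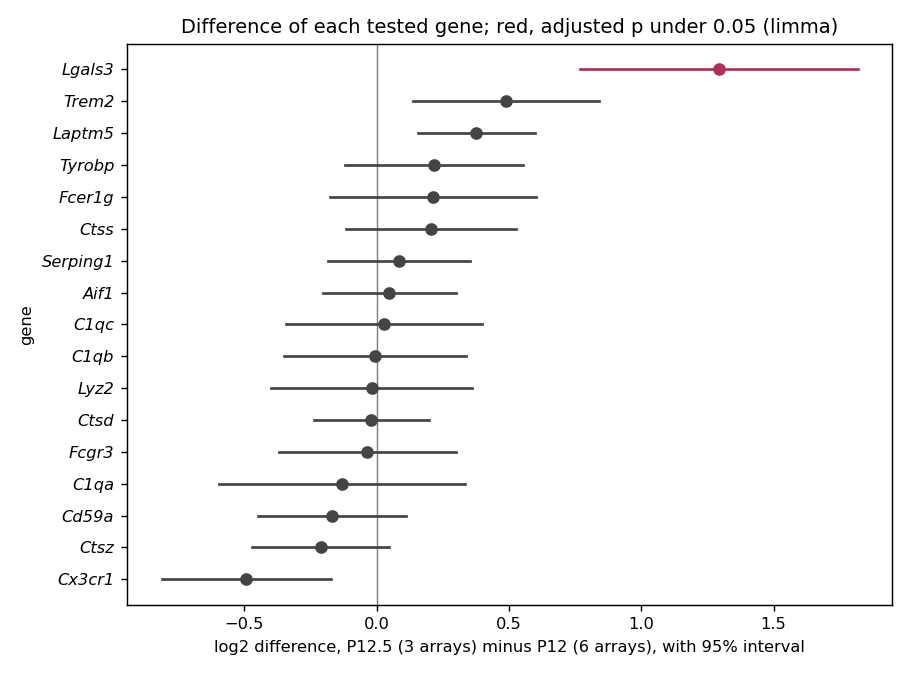
Log2 difference of P12.5 (3 arrays) from P12 (6 arrays) for each of the 17 tested genes, as points with 95% intervals from limma; the vertical line marks 0. Lgals3 (1.29) is the gene past the adjusted threshold, and the intervals of Laptm5, Trem2 and Cx3cr1 also leave out 0.

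Among the identity genes, the log2 level of Cx3cr1 (probe 1690577) was 6.54, 6.75 and 6.58 on control 1 to 3. It was 6.82, 6.22 and 6.22 on hyperoxic 1 to 3 and 6.09, 6.05 and 5.94 on hypoxic 1 to 3. The 3 hypoxic arrays were the lowest of the 9, while hyperoxic 2 and 3 lay close above them. The difference was -0.49 ± 0.14 (SE, 3 against 6 arrays) and did not pass (limma adjusted p = 0.0853, 95% interval -0.81 to -0.17). Without hyperoxic 1 it was -0.39 and passed (limma adjusted p = 0.0135), as did 3131 of all 19620 tested probes. It also passed with the P12 arrays grouped by the deposited ratios (limma adjusted p = 0.021), as did 1789 probes. Median centring gave -0.25 and the deposited ratios -0.18 (limma adjusted p = 0.368 and 0.56). Aif1, which encodes the calcium-binding protein Iba1, was at 5.83, 5.86 and 6.01 on the control arrays and 5.73, 5.84 and 5.73 on the hypoxic arrays. On hyperoxic 2 and 3 it was at 5.29 and 5.73, and on hyperoxic 1 it was not detected. Its difference at P12.5 was 0.05 ± 0.11 (limma adjusted p = 0.844, 95% interval -0.20 to 0.30), and the groups overlapped.

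None of the 5 tested receptor and signalling genes passed. Laptm5 (probe 5550372), a lysosomal membrane protein of blood-derived cells and microglia that dampens antigen receptor signalling, was at 9.05, 9.06 and 9.07 on the control arrays. Its levels were 9.16, 8.85 and 9.07 on the hyperoxic arrays and 9.54, 9.38 and 9.34 on the hypoxic arrays. All hypoxic arrays were above all P12 arrays. The difference of 0.38 ± 0.10 missed the threshold (limma adjusted p = 0.066, 95% interval 0.15 to 0.60). Without hyperoxic 1 it was 0.41 and passed (limma adjusted p = 0.0128), as did 3131 of all 19620 tested probes. With the P12 arrays grouped by the deposited ratios it also passed (limma adjusted p = 0.0332).

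The lipid-sensing phagocytic receptor gene Trem2 (probe 6290358) was at 5.54, 5.51 and 5.23 on the control arrays. It was at 6.02, 5.31 and 5.64 on the hyperoxic arrays and 6.22, 5.98 and 5.90 on the hypoxic arrays. The hypoxic arrays were above all P12 arrays other than hyperoxic 1, which lay within their range. The difference of 0.49 ± 0.16 did not pass (limma adjusted p = 0.111, 95% interval 0.14 to 0.84). Without hyperoxic 1 it was 0.58 and passed (limma adjusted p = 0.00788), as did 3131 of all 19620 tested probes. Tyrobp, the adaptor through which Trem2 signals, differed by 0.22 ± 0.15 (limma adjusted p = 0.44). Fcer1g, the common signalling chain of Fc receptors, was at 6.58, 6.89 and 6.79 on the control arrays, 7.29, 6.41 and 6.62 on the hyperoxic and 7.02, 6.90 and 7.01 on the hypoxic arrays. Its difference of 0.21 ± 0.18 did not pass (limma adjusted p = 0.516). Without hyperoxic 1, its highest array, it was 0.34 and passed (limma adjusted p = 0.0383), again as 1 of 3131 probes. Fcgr3, a receptor for the constant part of IgG, differed by -0.04 ± 0.15 (limma adjusted p = 0.915).

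Lgals3 (probe 2120239), a carbohydrate-binding protein that marks phagocytic macrophages, was at log2 levels of 7.10, 6.95 and 6.79 on the hypoxic arrays. On the control arrays it was at 6.00, 5.50 and 5.51. On the hyperoxic arrays it was at 4.97, 5.74 and 6.18, of which 4.97, on hyperoxic 1, was not detected. The lowest hypoxic array was above the highest P12 array. It rose by 1.29 ± 0.23 at P12.5 (limma adjusted p = 0.0231, 95% interval 0.77 to 1.82). Among other settings, the call was lost in the deposited ratios (0.85, limma adjusted p = 0.0871) and when control 2, control 3 or any 1 hypoxic array was left out (differences of 1.22 to 1.37, limma adjusted p = 0.0539 to 0.129). Without hyperoxic 1 it was 1.13 (limma adjusted p = 0.000744).

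The other lysosomal genes did not pass. The protease genes Ctss and Ctsd differed by 0.20 ± 0.14 (limma adjusted p = 0.448) and -0.02 ± 0.10 (limma adjusted p = 0.923). Ctsz differed by -0.21 ± 0.12 (limma adjusted p = 0.325), and its second tested probe by -0.02. The lysozyme gene Lyz2, whose probe may also bind the transcript of its near copy Lyz1, differed by -0.02 ± 0.17 (limma adjusted p = 0.959). Ctss and Lyz2 were not detected on hyperoxic 1.

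None of the complement genes in the list passed, and the 3 C1q chains had differences close to 0. C1qc (probe 5700131) was at 6.83, 7.23 and 7.22 on the control arrays, 7.55, 6.89 and 6.94 on the hyperoxic arrays and 7.22, 7.23 and 6.96 on the hypoxic arrays. C1qb (probe 5910292) was at 6.80, 7.04 and 7.34 on the control arrays, 7.42, 6.82 and 6.98 on the hyperoxic arrays and 7.11, 7.05 and 7.02 on the hypoxic arrays. In both genes hyperoxic 1 was the highest array and control 1 the lowest, and the groups overlapped. C1qa was highest on hyperoxic 1 too, at 7.11, against 6.02 to 6.71 on the other arrays. The differences at P12.5 were 0.03 ± 0.17 for C1qc (limma adjusted p = 0.944, 95% interval -0.34 to 0.40) and -0.01 ± 0.15 for C1qb (limma adjusted p = 0.986, 95% interval -0.35 to 0.34). That of C1qa was -0.13 ± 0.21 (limma adjusted p = 0.755, 95% interval -0.59 to 0.33), and each interval includes 0. With median centring, where all probes had a median of 0.24, the 3 differences were 0.31, 0.28 and 0.15 in the same order, and none passed. The inhibitor genes Serping1, of the C1 proteases, and Cd59a, of the membrane attack complex, differed by 0.08 ± 0.12 (limma adjusted p = 0.726) and -0.17 ± 0.12 (limma adjusted p = 0.466).

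The labelled groups were then compared in pairs, which share arrays and are given side by side. Between hypoxic and hyperoxic arrays 1.7% of all probes passed (1.13% higher, 0.566% lower), and so did Lgals3 (1.31 ± 0.27, 3 arrays per group, limma adjusted p = 0.0468). Between hypoxic and control arrays 1.89% of probes passed (1.29% higher, 0.601% lower), and so did Lgals3 (1.27 ± 0.27, limma adjusted p = 0.0492). Both of its adjusted p-values lie just under the threshold. Cx3cr1 differed by -0.39 ± 0.17 from the hyperoxic arrays (limma adjusted p = 0.243) and by -0.59 ± 0.17 from the control arrays (limma adjusted p = 0.0942). Trem2 differed by 0.38 ± 0.18 (limma adjusted p = 0.298) and 0.60 ± 0.18 (limma adjusted p = 0.113), and Laptm5 by 0.39 ± 0.11 (limma adjusted p = 0.112) and 0.36 ± 0.11 (limma adjusted p = 0.128). Against the control arrays 6 of 17 genes were higher on every hypoxic array (Tyrobp, Trem2, Fcer1g, Laptm5, Ctss and Lgals3), where 17.6% of all probes were. Of these, Tyrobp was not detected on control 2. It passed the detection filter only through the hypoxic arrays, so its place in this count shows no rise. Only Cx3cr1 of the 17 was lower on every hypoxic array, where 20.2% of all probes were. Against the hyperoxic arrays Laptm5 and Lgals3 were higher on every hypoxic array (13.2% of all probes) and Cx3cr1 was lower (10.2%).

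Between the arrays labelled hyperoxic and control none of the 17 genes passed, and 0% of all probes did. No gene was higher on every hyperoxic array, where 4.33% of all probes were. At an unadjusted p under 0.05 the limma test gave 1 of the 17 genes, Aif1, and 9.55% of all probes. Aif1 was lower on every hyperoxic array, where 9.8% of all probes were, with a difference of -0.36 ± 0.13 (limma adjusted p = 0.489), and it was not detected on hyperoxic 1. With array weights 2680 probes passed, Cx3cr1 and Lgals3 among them. The C1q genes differed by -0.12 ± 0.24 (C1qa), 0.01 ± 0.18 (C1qb) and 0.03 ± 0.19 (C1qc), and in both groups the arrays spread over a wider range than these differences.

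Split by the deposited ratios, the P12 arrays ordered several of these genes. Of all probes 3.99% passed between non-reference and reference P12 arrays (1.59% higher, 2.41% lower on the former), and 0 of the 17 genes did, with 6 at an unadjusted p under 0.05 in limma (22.6% of all probes). The arrays did not overlap for 5 genes that were higher on the non-reference arrays, namely Cx3cr1, Fcer1g, Fcgr3, C1qb and C1qc, where 13% of all probes did so. C1qc was at 6.83, 6.89 and 6.94 on the reference arrays and 7.22, 7.23 and 7.55 on the non-reference arrays, a difference of 0.45 ± 0.12 (limma adjusted p = 0.0738). For C1qb the difference was 0.40 ± 0.12 (limma adjusted p = 0.0861), for C1qa 0.46 ± 0.19 (limma adjusted p = 0.181) and for Fcer1g 0.45 ± 0.14 (limma adjusted p = 0.0934). With hyperoxic 1 left out they were 0.34 (C1qc), 0.33 (C1qb), 0.29 (C1qa) and 0.30 (Fcer1g), and none passed (limma adjusted p = 0.112 to 0.324). Lgals3 was the 1 gene lower on every non-reference array, where 13% of all probes were, with a difference of -0.65 ± 0.17 (limma adjusted p = 0.0658), or -0.47 without hyperoxic 1 (limma adjusted p = 0.0783).

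**Figure D4:**
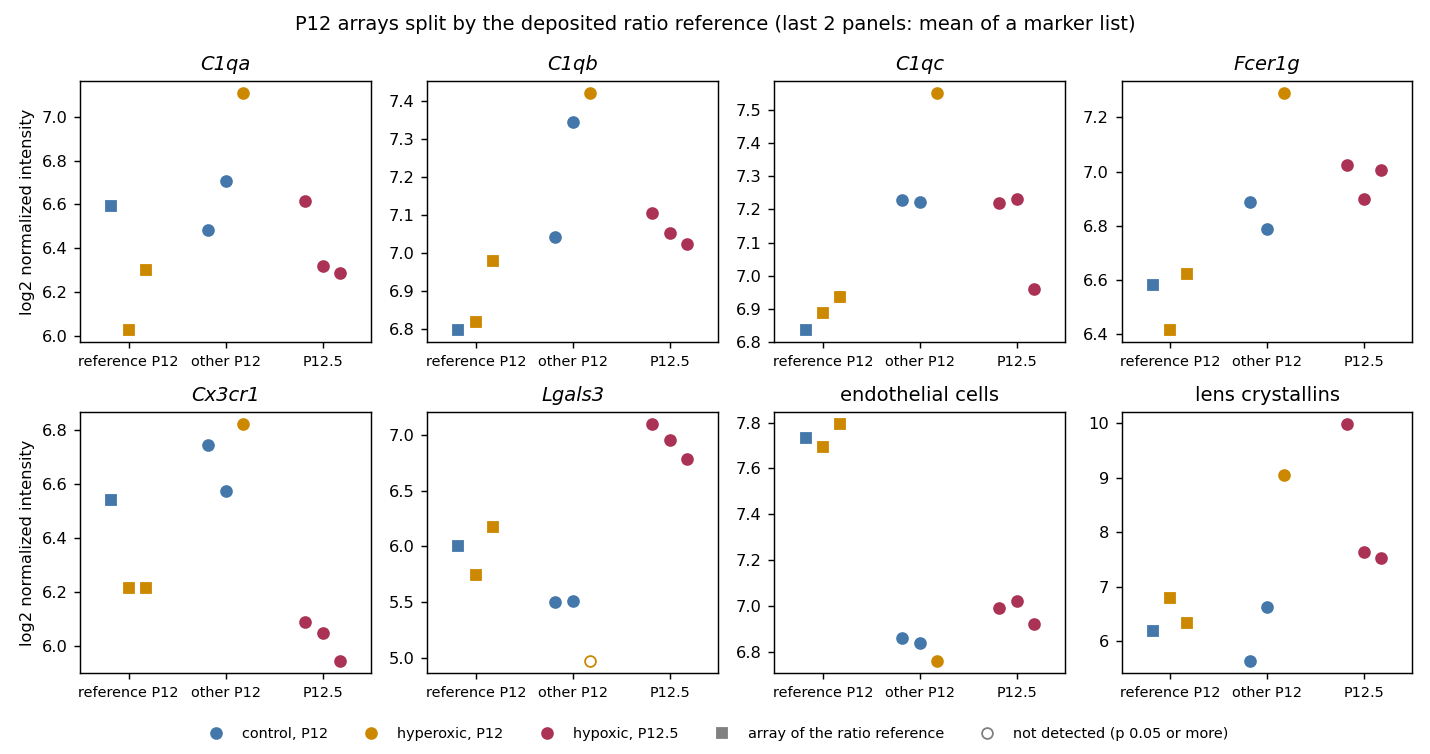
Log2 normalized intensity (vertical axis, a scale of its own in each panel) of 6 genes and the mean of 2 marker lists on the reference P12, non-reference ("other") P12 and P12.5 arrays, 3 points each, coloured by label. C1qb and C1qc lie higher on all non-reference than on all reference arrays, Lgals3 lies highest at P12.5, and the endothelial mean separates the reference arrays from the other 6.

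The same split divided the endothelial marker list, whose mean log2 level was 7.69 to 7.79 on the reference arrays, 6.76 to 6.86 on the non-reference arrays and 6.92 to 7.02 at P12.5. Of its 12 tested genes 10 passed as lower on the non-reference arrays, where 2.41% of all probes did so. The part of this shift in the values of the microglial genes was not tested. P12.5 arrays were then compared with each P12 set on its own. Against the non-reference arrays, where 6.26% of probes passed (4.25% higher, 2.02% lower), Lgals3 rose by 1.62 ± 0.17 (limma adjusted p = 0.0018) and Cx3cr1 fell by 0.69 ± 0.12 on the log2 scale (limma adjusted p = 0.0166). Against the reference arrays, where 9.04% of probes passed (4.4% higher, 4.64% lower), Lgals3 rose by 0.97 ± 0.17 (limma adjusted p = 0.00726) and Laptm5 by 0.43 ± 0.11 (limma adjusted p = 0.0328). Cx3cr1 differed by -0.30 ± 0.12 from the reference arrays and did not pass (limma adjusted p = 0.172). When hyperoxic 1 was left out, 1641 of all 19620 tested probes passed against the non-reference and 3417 against the reference arrays. In that setting Trem2 passed too, at 0.66 against the non-reference (limma adjusted p = 0.0191) and 0.53 against the reference arrays (limma adjusted p = 0.013). Fcer1g passed at 0.44 against the reference arrays (limma adjusted p = 0.0103). The P12.5 means of all 3 C1q genes lay below the non-reference and above the reference means, and none of these differences passed.

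Other genes of the same pathways were counted at P12.5 against all P12 arrays. None of the 25 tested further microglial identity genes passed (median difference -0.09, all probes 0.02). Those of lowest p were the myeloid transcription factor gene Irf8 (0.39 ± 0.10, limma adjusted p = 0.0672), Selplg, which encodes the selectin ligand PSGL-1 (-0.49 ± 0.14, limma adjusted p = 0.0803), the TGF-beta receptor gene Tgfbr1 (0.25 ± 0.10, limma adjusted p = 0.21) and the transporter gene Slco2b1 (-0.64 ± 0.28, limma adjusted p = 0.213). Of the P12 arrays, Irf8 was detected on 2 only. It passed the detection filter through the P12.5 arrays alone, so its difference shows no rise. None of 36 further activation and lysosome genes passed either (median 0.00). Cx3cl1, the neuronal ligand of Cx3cr1, was lower on every P12.5 array (-0.34 ± 0.09, limma adjusted p = 0.0713), where 7.06% of all tested probes were. Npc2, a lysosomal cholesterol carrier, was higher on every one (0.45 ± 0.13, limma adjusted p = 0.0779), where 6.91% of probes were. Lgals1, another galectin, was also lower on every P12.5 array (-0.39 ± 0.13, limma adjusted p = 0.114), opposite in sign to Lgals3. The lysosomal enzyme gene Hexa differed by -0.35 ± 0.12 (limma adjusted p = 0.127).

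At P12.5 against all P12 arrays 1.57% of all tested probes fell and 2.26% rose. Of 13 further complement genes tested, 2 fell and none rose. Both are fluid-phase inhibitors of the membrane attack complex. Vtn, also an adhesion protein, was at 9.46, 9.71 and 9.64 on the hypoxic arrays, 10.83, 10.08 and 10.13 on the control arrays and 10.53, 11.12 and 11.07 on the hyperoxic arrays. It fell by 1.03 ± 0.19 on the log2 scale (limma adjusted p = 0.0248), and the groups did not overlap, as for 7.06% of all tested probes that were lower. Clu, also a secreted chaperone, was at 10.93, 10.87 and 10.80 on the hypoxic arrays and at 11.11 to 11.49 on the 6 P12 arrays, and fell by 0.46 ± 0.09 (limma adjusted p = 0.0331). With median centring Vtn was at -0.72 and Clu at -0.17, and neither passed (limma adjusted p = 0.185 and 0.625), nor did they in the deposited ratios. Vtn differed by -0.65 from the non-reference and by -1.40 from the reference arrays, and passed in both (limma adjusted p = 0.0327 and 0.000458), while Clu (-0.38 and -0.54) passed against the reference arrays only. Cd93, a surface protein first described as a C1q receptor and also made by endothelium, was named after its values were seen: it was 0.95 higher than on the non-reference arrays (limma adjusted p = 0.0291) and differed by -0.94 from the reference arrays (limma adjusted p = 0.0174). C8g and Cr1l differed by 0.25 ± 0.14 and 0.21 ± 0.14 (limma adjusted p = 0.337 and 0.411). Cr1l was detected on 2 of the 6 P12 arrays and passed the detection filter through the P12.5 arrays alone. Of the 39 complement genes of this list with a probe, 22 were detected on no array, among them C3ar1, C5ar1 and Cfb.

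Markers of other cells that could carry these genes were counted in the same comparison. Of 18 monocyte and neutrophil genes with a probe, 10 were detected on no array, S100a8, S100a9 and Mpo among them, and none of the 6 tested passed. Their mean level was 6.19 to 6.38 at P12.5 and 6.12 to 6.49 at P12. Ly6c1 (-0.52 ± 0.25, limma adjusted p = 0.273), Mmp9 (-0.16 ± 0.09, limma adjusted p = 0.322), Lcn2 (0.46 ± 0.29, limma adjusted p = 0.403) and Chil3 (0.13 ± 0.17, limma adjusted p = 0.699) had the lowest p. Of 12 lymphocyte genes with a probe, 10 were detected on no array, Cd3e and Cd79a among them, and neither tested gene passed. Of 9 perivascular macrophage genes 5 were detected on no array and 3 were tested. Lyve1, which lymphatic endothelium also makes, fell by 0.67 ± 0.14 on the log2 scale (limma adjusted p = 0.0347; 0.346 with median centring), while Mgl2 and Stab1 differed by 0.07 ± 0.09 and -0.01 ± 0.20. Lyve1 differed by -0.88 from the reference arrays, which carry the higher endothelial mean (limma adjusted p = 0.0163), and by -0.47 from the non-reference arrays, where it did not pass (limma adjusted p = 0.147). The 3 tested erythroid genes did not pass (Hba-a1 -0.67 ± 0.52, limma adjusted p = 0.493).

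For the lists that follow, 2.26% of all tested probes rose and 1.57% fell at P12.5 against P12. Beside Lgals3, 6 of 10 tested reactive glia genes rose and none fell. Among them were the intermediate filament gene Nes (1.07 ± 0.13, limma adjusted p = 0.00466), the cytokine receptor gene Osmr (1.16 ± 0.15, limma adjusted p = 0.006), the transcription factor gene Stat3 (0.59 ± 0.10, limma adjusted p = 0.0177) and the signalling inhibitor gene Socs3 (0.97 ± 0.17, limma adjusted p = 0.0193). These 4 also passed with median centring, and none of the 6 in the deposited ratios. Nes was detected on no P12 array and passed the detection filter through the P12.5 arrays alone. Its difference is therefore known only as a bound, a rise of at least 1.49-fold. The list mean was 7.55 on each P12.5 array and 6.81 to 6.98 at P12. This mean includes Nes and also Serpina3n, which was detected on 3 of the 6 P12 arrays. Serpina3n too passed the detection filter through the P12.5 arrays alone. The filter thus favoured a higher list mean at P12.5. The endothelial list had 1 of 12 genes past the test, Slco1c1, which fell by 1.46 ± 0.28 on the log2 scale (limma adjusted p = 0.0271; 0.108 with median centring). Of 12 retinal cell genes 3 passed, all lower: the cone gene Arr3 (-1.94 ± 0.25, limma adjusted p = 0.00492) and the rod genes Gnat1 (-0.50 ± 0.10, limma adjusted p = 0.0289) and Pde6b (-0.34 ± 0.08, limma adjusted p = 0.0473). With median centring Arr3 still passed (limma adjusted p = 0.0324), Gnat1 did not and Pde6b was at 0.02. None of the 14 lens crystallin genes passed (median 1.70), and their mean was highest on hypoxic 1 (9.99) and hyperoxic 1 (9.05), against 5.63 to 7.64 on the other arrays. The part of glia and of lens tissue in the level of Lgals3 was not tested. Hypoxic 1 had the highest Lgals3 level too, and on hyperoxic 1 Lgals3 was not detected above that array's higher floor.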

How the data were processed

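Per the labels' protocols, total RNA of both retinas of 1 mouse was extracted and biotin-labelled cRNA was hybridised to Illumina bead arrays, 3 per group. The deposited table gives a linear intensity per probe and array; its medians differ between arrays, so it was taken as not normalized. The sources used here do not state the background treatment or scanner software. Beside each signal the deposited table gives detection p-values. Of its 9 p-value columns 5 follow the intensity of another array than the one they stand beside, and each was used with the array it follows. The authors' deposited ratio per probe and array, of a scaling that the sources used here do not state, served as an alternative only and for the check of its reference (84 sets of 3 arrays, tolerance 0.0015).

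Of 46640 probes 27 were 0 on all arrays. The other 46613 were corrected and normalized with neqc (limma 3.58.1, R 4.3.3: normexp background from the detection p-values, offset 16, quantile normalization, log2). Of these, 32781 had 1 symbol in the platform annotation, 55 several and 13777 none, and 32709 were matched to a gene identifier through which symbols were updated. The test covered the 19620 probes (10948 named genes) whose detection p was below 0.05 throughout some group. One limma model (lmFit, eBayes) with 3 group means gave 4 comparisons, two-sided, with Benjamini-Hochberg adjustment over all tested probes at 0.05; adjusted p-values come from it, from the same model with P12 arrays grouped by the reference, or from the alternative named in the sentence. The number of arrays limits the precision. The steps were tested on simulated data.

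The members, the other gene lists, the motifs and the tests were chosen with earlier results of these data known. Every member is named whatever its values, and of each other list up to 4 genes of lowest p at P12.5 against P12. Leaving out the 4 arrays of doubtful label together, leaving out hyperoxic 1 from the split by reference, and the split for genes outside the list were added after seeing the data. Array weights were estimated gene by gene, because the default method did not converge and gave other counts.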

Additional observations from a re-analysis of the deposited data

How the results depend on the processing

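Lgals3 at P12.5 against P12 was positive in all 22 alternatives (0.67 to 1.48) and passed in 15 (limma adjusted p = 0.00015 to 0.129). It was positive in all 22 and passed in 12 against the hyperoxic arrays and in 11 against the control arrays. Cx3cr1 was negative and Laptm5 and Trem2 positive in all 22 at P12.5 against P12, and they passed in 4, 5 and 2. The counts of probes and of members that passed moved as follows, in the order P12.5 against P12, hypoxic against hyperoxic, hyperoxic against control, and hypoxic against control, where the values as reported are 752, 333, 0 and 371 probes and 1, 1, 0 and 1 members. Leaving out 1 array at a time gave 69 to 3131, 49 to 2006, 0 to 568 and 18 to 3169 probes and 0 to 5, 0 to 4, 0 and 0 to 4 members, the highest counts being those without hyperoxic 1. Array weights gave 5310, 5289, 2680 and 4061 probes and 5, 5, 2 and 4 members, and turned Lgals3 between hyperoxic and control from -0.04 to 0.50 (limma adjusted p = 0.0439), whereas leaving out the 4 arrays of doubtful label gave -1.03 there (limma adjusted p = 0.00624). Grouping the P12 arrays by the deposited reference gave 1789, 1229, 783 and 1774 probes and 3, 2, 0 and 2 members. Leaving out the 4 arrays of doubtful label, which leaves 1 control and 1 hyperoxic array assumed to vary like the hypoxic ones, gave 6075, 7201, 4359 and 2584 probes and 4, 5, 5 and 2 members. The deposited ratios gave 26, 21 and 14 probes in the 3 comparisons with hypoxic arrays and 0 members in each. Sex as a term gave 334, 135 and 18 probes there, with 0 members in the comparisons of hypoxic with hyperoxic and with control arrays. Median centring gave 257, 185 and 42 probes, with 0 members against the control. With no filter on dim probes 190 probes passed between hypoxic and hyperoxic, and 0 members in that comparison and against the control. No background correction and an offset of 50 gave 694 and 627 probes against the control, and 2 members each at P12.5 against P12. The cause of these shifts was not tested. Replicate numbers do not pair the samples (same-number correlations of deviations -0.34 to 0.11 over 9 pairs). With the replicate number as a block 182, 127 and 42 probes and 0 members passed in the 3 comparisons with hypoxic arrays, and Lgals3 had limma adjusted p-values of 0.0699, 0.117 and 0.128. Signal over background limits the 10 genes with a probe that were not tested, and the values of dim genes on hyperoxic 1.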

Other observations

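Sall1, a transcription factor gene of microglial identity, differed by -0.14 ± 0.18 at P12.5 against P12 (limma adjusted p = 0.708), and Gpr34, a lysophospholipid receptor gene of microglia, by -0.16 ± 0.10 (limma adjusted p = 0.379). Both were picked from the list of further identity genes as markers of resident microglia, after their values had been seen. Of the 25 tested genes of that list 17 had a negative and 8 a positive difference. The highest was that of P2ry6 (0.58 ± 0.31, limma adjusted p = 0.32). Sall1 was detected on 2 of the 3 hypoxic arrays. It passed the detection filter through the control arrays alone, so its difference shows no fall.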
